A study of Mus musculus with 10 samples.

Results

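The genes described here encode the constitutive proteasome, its activators, its inhibitor and the chaperones that assemble it. They were taken by name from the 4 deposited expression tables (symbols beginning with Psma, Psmb, Psmc, Psmd, Psme, Psmf or Psmg and a number), leaving out the 3 interferon-inducible catalytic subunits Psmb8, Psmb9 and Psmb10. Of 47 rows that matched, 45 reached 1 FPKM (fragments divided by transcript length and by the library's total) in at least 1 column and were kept, among 23417 genes listed in each Huwe1 table and 23431 in the USP10 table. The other two, the testis-associated Psma8 and the thymus-associated Psmb11, did not exceed 0.157 and 0.138 FPKM in any column. Of the 45 genes, 44 fell into structural groups. The remaining one, Psmc3ip, matched by name only, since its product is a recombination factor and no proteasome subunit.

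The cells were C2C12, an immortalised mouse myoblast line that fuses into myotubes in low-serum medium. Per the paper's methods, the ubiquitin ligase Huwe1 was knocked down by lentivirus in myoblasts, which were selected with puromycin. These cells were studied while proliferating at day 0 and after 6 days of differentiation. Myotubes harvested at day 8 were instead infected at day 4 and then selected with puromycin. The day 0, day 6 and day 8 comparisons each held 1 control library and 2 knockdown libraries. The knockdown libraries, each with its own short hairpin RNA, were pooled by the authors into 1 column. The 4th comparison set 1 library of a stable line at day 6, carrying USP10 cDNA under the EF1a promoter, against a control. Controls are wild type by their labels at day 0 and day 6. If they were not infected and selected, these steps cannot be told apart from the knockdown. At day 8 the control's label gives a non-targeting RNA while the table header gives wild type. For day 0 and day 6, labels and methods list different hairpin sequences. The header of the USP10 table gives its control the same read file name as the day 6 control of the Huwe1 series, but the values differ, and its library could not be mapped. It is called the second day 6 control here.

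Every condition therefore has 1 value per gene, so no difference has a replicate error, no test was possible and all comparisons describe these libraries. A gene was counted as lower or higher when its FPKM differed at least 1.5-fold or 2-fold from control, and these counts are set beside the share of all genes with at least 1 FPKM that passed the same limit. Depth, estimated from what 1 fragment was worth, was between 18000000 and 29900000 fragments for the 4 columns known to be 1 library. It was 7770000 for the second day 6 control, which was taken as 1 library because its header names 1 read file. It could not be estimated for pooled columns. Huwe1 went from 38.3 to 15.2 FPKM at day 0, from 35.1 to 21.9 at day 6 and from 55.4 to 33.0 at day 8. Usp10 went from 10.3 to 38.3 FPKM in the overexpressing line, and from 13.2 to 35.4 FPKM under Huwe1 knockdown at day 6. Differentiated muscle was followed with Myog, Ckm, Acta1, Myh3 and Tnnt3, whose FPKM values summed to 4.97 and 7.84 at day 0. Of these only Acta1 reached 1 FPKM at day 0, so they do not show muscle identity there. The 4 myoblast markers were all lower in the day 0 knockdown. Myod1 had 21.7 and 9.30 FPKM, Myf5 12.5 and 8.79, Des 345 and 173, and Cdh15 53.8 and 30.3. The summed values of 6 markers of other cell types (Ptprc, Cd68, Pecam1, Epcam, Adipoq and Krt5) were between 0.789 and 5.75 in all 8 columns.

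The proteasome is the protease that degrades most ubiquitinated proteins in the cell. Its barrel-shaped core is made of outer alpha rings, which gate entry, and inner beta rings, which carry the proteolytic sites, and a regulatory particle caps it. The base of that particle holds a ring of ATPases that unfold substrates, and the lid holds the deubiquitinase that removes the ubiquitin chain. Core, base and lid together form the 26S proteasome. In muscle it is the main route by which myofibrillar protein is broken down, and its subunit genes are known to be driven together by the transcription factor Nfe2l1 when proteasome activity is short.

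The sequences upstream of a few members are shown first, because members of 1 complex that moved together are usually compared for shared promoter elements. Windows of 250 bases before and 50 after the start site (RefSeq, GRCm38.p6) were present for 38 of the 45 genes, 25 of them 26S subunits. In the following stretches, capitals mark matches to 5 of the 7 motifs searched on both strands, and each of the first 4 is 150 bases ending at the base before the start site. Psmb5, the chymotrypsin-like catalytic subunit, lies at chr14:54617996-54618145 on the minus strand and holds a YY1 core and an antioxidant response element core. Psmd2, a base scaffold (chr16:20651502-20651651, plus strand), and Psmd11, a lid subunit (chr11:80428465-80428614, plus strand), hold an ETS match, and Psmd11 a YY1 core too. Psmc5, a base ATPase (chr11:106256035-106256184, plus strand), holds a match for nuclear respiratory factor 1. Psme1, the alpha subunit of the interferon-inducible activator PA28, is shown only as the 30 bases that begin at its start site (chr14:55578494-55578523, plus strand), which hold an interferon-stimulated response element core.
Psmb5: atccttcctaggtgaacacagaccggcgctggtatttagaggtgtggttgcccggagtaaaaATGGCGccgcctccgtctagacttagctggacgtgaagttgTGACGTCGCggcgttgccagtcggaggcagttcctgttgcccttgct
Psmd2: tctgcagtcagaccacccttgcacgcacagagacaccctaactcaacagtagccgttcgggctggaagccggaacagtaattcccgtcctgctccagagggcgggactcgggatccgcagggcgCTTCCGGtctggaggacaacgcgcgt
Psmd11: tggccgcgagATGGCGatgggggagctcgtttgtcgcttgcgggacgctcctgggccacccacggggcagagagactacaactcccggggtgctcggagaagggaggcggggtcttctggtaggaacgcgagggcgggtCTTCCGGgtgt
Psmc5: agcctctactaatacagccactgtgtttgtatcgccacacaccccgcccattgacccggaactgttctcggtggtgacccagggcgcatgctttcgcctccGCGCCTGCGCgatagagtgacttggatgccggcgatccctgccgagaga
Psme1: gagctgtgcTTTCGCTTTCccttcccgctg
Psmd2, Psmd11 and Psmc5 were among the genes at least 2-fold below control in the day 6 knockdown described further on. Psmb5 was the lowest core gene there, and Psme1 was at least 2-fold above control. The genes shown were picked with earlier results of these data known, and no link between a motif and a ratio was tested.

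The antioxidant response element core (TGACNNNGC), which Nfe2l1 and Nfe2l2 bind with small Maf proteins, was present in 6 of the 38 windows (Psmb5, Psmb6, Psmc6, Psmd9, Psmd12 and Psme4), or 15.8%, against 12.5% of all 27025 windows and 15.2% of the 9246 windows of genes with at least 1 FPKM. The 3 following letter patterns were each more frequent in the proteasome windows than in those of the expressed genes. The ETS core (CCGGAAG) was in 36.8% against 18.4%, the YY1 core (ATGGCG) in 28.9% against 16.0%, and the nuclear respiratory factor 1 motif in 18.4% against 10.6%. Over all windows these shares were 9.12%, 9.24% and 4.78%. The window of Psmc3ip, which is no subunit, is counted among the 38 and holds the ETS core and CCAAT. Both CCAAT (NF-Y), in 34.2% against 39.1% of expressed and 37.9% of all windows, and GGGCGG (Sp1), in 57.9% against 65.0% and 35.9%, were not more frequent than among expressed genes. The interferon-stimulated response element core, a motif added after the results were known, was in 5 windows (Psmb3, Psmd4, Psmd9, Psme1 and Psmg4), or 13.2%, against 2.82% of expressed and 3.49% of all windows. In the day 6 knockdown described further on, Psme1 was above control (log2 ratio 1.20). The other holders of this element, Psmb3 (-0.59), Psmd4 (-0.32), Psmd9 (-0.34) and Psmg4 (-0.62), were below it. Psme2, whose window holds no such match, was above control (0.60). A window without these letters shows only that they are not in that window.

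In control myoblasts at day 0 the subunits of the core, base and lid were abundant and close to each other in level. The 31 genes of the 26S proteasome had a median of 157 FPKM, from 79.9 for Psmb5 to 379 for Psmc6, an ATPase. Within the alpha ring the lowest was Psma5 with 117 FPKM and the highest Psma7 with 284 FPKM, a 2.44-fold spread. The lid was narrower, from 105 FPKM for Psmd11 to 176 FPKM for Psmd7. Most other components were below all 26S subunits, except the chaperone Psmg4 with 121 FPKM. The activators Psme1, Psme2, Psme3 and Psme4 stood at 40.2, 21.5, 61.0 and 47.1 FPKM, the inhibitor Psmf1 (PI31) at 7.25 FPKM, and the 7 assembly chaperones at a median of 29.8 FPKM.

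Day 6 and day 8 control levels differed from those at day 0 by group, although the tables were normalized separately and these ratios are set across them. The base was higher at day 6 than at day 0, with a median log2 ratio of 0.39 over 9 genes, and the median was -0.14 for the core, -0.08 for the lid and -0.56 for the assembly factors. Psmc3, an ATPase, had 200 FPKM at day 0, 378 at day 6 and 386 at day 8, and was the only member at least 1.5-fold higher at day 6 (1 of 45, against 30.2% of all genes), while 13 members were at least 1.5-fold lower (against 32.8%). The second day 6 control did not repeat the rise of the base: the base median log2 ratio to day 0 was 0.01, and Psmc3 had 226 FPKM in it. Core, lid and assembly factors had medians of -0.48, -0.39 and -0.61 there, and all genes -0.10, so the base again stood above those groups. At day 8 the medians to day 0 were 0.19 for the base, -0.24 for the core, -0.03 for the lid and -0.45 for the assembly factors. Psma1, an alpha ring subunit picked after its values were seen, had 143 to 163 FPKM in the 4 columns of day 0 and day 8. In the 4 columns of day 6 it had 41.9 to 69.1 FPKM. The share of all genes that differ between these columns in this way was not computed.

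Huwe1 knockdown in proliferating myoblasts left the proteasome genes near their control level. None of the 45 was at least 1.5-fold lower or higher, where 5.52% and 4.72% of all 10874 genes were, and none passed 2-fold, where 1.69% and 1.90% did. Their median log2 ratio was -0.10, with 0.00 for all genes. The lowest was Psmb5, with 79.9 FPKM in the control and 55.6 after knockdown (log2 ratio -0.52), and the highest was Psmd5, a base chaperone, with 30.9 and 38.4 FPKM (0.31). All 7 beta ring genes were below control, from Psmb5 to Psmb2 (-0.03), with Psmb6 at -0.07 and Psmb7 at -0.13. In the alpha ring the extremes were Psma7 (-0.17) and Psma2 (0.20), among the ATPases Psmc6 (-0.29) and Psmc1 (0.00), among the other base genes Psmd2 (-0.13) and Psmd1 (0.12), with Psmd4 at 0.10, and in the lid Psmd3 (-0.32) and the deubiquitinase Psmd14 (0.19). Activators ran from Psme2b (-0.42) to Psme2 (0.24), with Psme1 at -0.21, Psme3 at -0.03 and Psme4 at -0.22. The inhibitor Psmf1 was at -0.08, and the lowest assembly factor was Psmg2 (-0.41). These lie inside the 1.5-fold limit, which is 0.585 in log2 units.

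After 6 days of differentiation the picture was different. Every one of the 31 26S subunits taken by name was lower in Huwe1 knockdown cells than in the day 6 control. Their median log2 ratio was -0.59, and 16 of them were at least 1.5-fold lower. The name rule leaves out the lid-associated Shfm1, which was higher (1.26), and the ubiquitin receptor Adrm1, which was lower (-0.79). Over all 45 genes, 20 were at least 1.5-fold lower, where 23.5% of all 11695 genes were, and 4 were at least 1.5-fold higher, where 26.6% were. At 2-fold the counts were 5 lower, against 13.4% of all genes, and 2 higher, against 17.6%. Past 1.5-fold the members' share on the lower side was above that of all genes, and past 2-fold it was not. The median over all genes was -0.01.

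**Figure D1:**
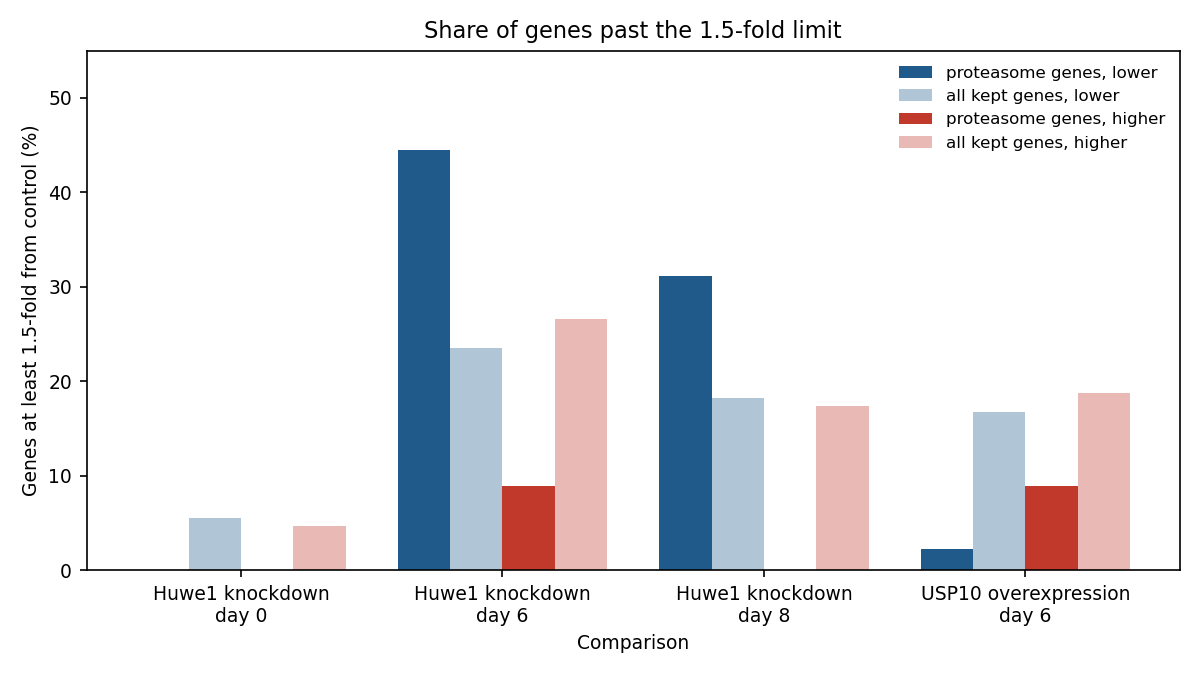
Share of genes, in percent (y axis), at least 1.5-fold lower or higher than control in the 4 comparisons (x axis). Dark bars are for the 45 genes kept by name, Psmc3ip included, and pale bars for all genes with at least 1 FPKM. At day 6 and day 8 of Huwe1 knockdown the dark bar for lower genes stands above its pale bar, and it is absent at day 0.

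The base was lowest. Its 9 genes had a median log2 ratio of -0.83, and 7 of them passed 1.5-fold. Psmd2, the scaffold next to the ATPase ring, fell from 269 to 110 FPKM (-1.29), the largest fall of any member. Among the ATPases 3 also fell at least 2-fold, Psmc3 from 378 to 181 FPKM (-1.07), Psmc4 from 127 to 62.3 FPKM (-1.03) and Psmc5 from 218 to 108 FPKM (-1.01). The ATPase nearest to control was Psmc2, with 203 and 136 FPKM (-0.57). Psmd4, the ubiquitin receptor, was the base gene nearest to control, with 313 and 251 FPKM (-0.32), so genes of the same subcomplex lay far apart.

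The core and the lid had nearly the same median log2 ratio, -0.54 and -0.57. All 3 proteolytic subunits fell. Psmb5 went from 91.8 to 51.1 FPKM (-0.84), Psmb6, the caspase-like subunit, from 183 to 114 FPKM (-0.69) and Psmb7, the trypsin-like subunit, from 327 to 193 FPKM (-0.76). By contrast Psmb2, a structural beta subunit, had 68.6 and 67.1 FPKM (-0.03). In the alpha ring Psma3 was lowest, falling from 217 to 130 FPKM (-0.73), and Psma6 was nearest to control, with 201 and 190 FPKM (-0.08). In the lid Psmd11 fell at least 2-fold, from 122 to 59.5 FPKM (-1.03), while Psmd8, with 163 and 160 FPKM (-0.03), and Psmd14, with 81.7 and 63.3 FPKM (-0.37), were within the limit.

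Assembly factors had a median log2 ratio of -0.57, and 3 of 7 were at least 1.5-fold lower. All 3 are core chaperones, namely Psmg2, which fell from 40.8 to 22.4 FPKM (-0.86), Psmg3 (-0.75) and Psmg4 (-0.62). The base chaperones were within the limit, with Psmd9 at -0.34, Psmd10 at -0.08 and Psmd5 at 20.9 and 23.4 FPKM (0.16).

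Not all activators followed, and the inhibitor did not. Psme1 went from 23.1 to 53.2 FPKM (1.20) and its partner Psme2 from 22.6 to 34.1 FPKM (0.60), and both are subunits of the PA28 ring that opens the core without ATP. The inhibitor Psmf1 went from 4.69 to 8.42 FPKM (0.84). Psme4, which encodes PA200, fell from 57.4 to 35.4 FPKM (-0.70), and Psme3, the nuclear PA28 gamma, had 42.4 and 29.0 FPKM (-0.55). So the same class held the genes furthest above control and one past the limit below it. The 4th activator row past the limit, Psme2b, is uncertain. It is a copy of Psme2 that shares 794 of its 837 transcript bases with it at 99.4% identity, its listed interval of chr11:48945352-48979398 also spans another gene, and its 0.220 FPKM in the day 6 control stands for about 5.51 fragments. It was listed at 26.1 FPKM in the knockdown column (6.83). Near copies that are not protein-coding exist for Psma4, Psma5, Psmb3, Psmb5, Psmc1, Psmd2 and Psmd11, and how fragments were divided between them is not stated.

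**Figure D2:**
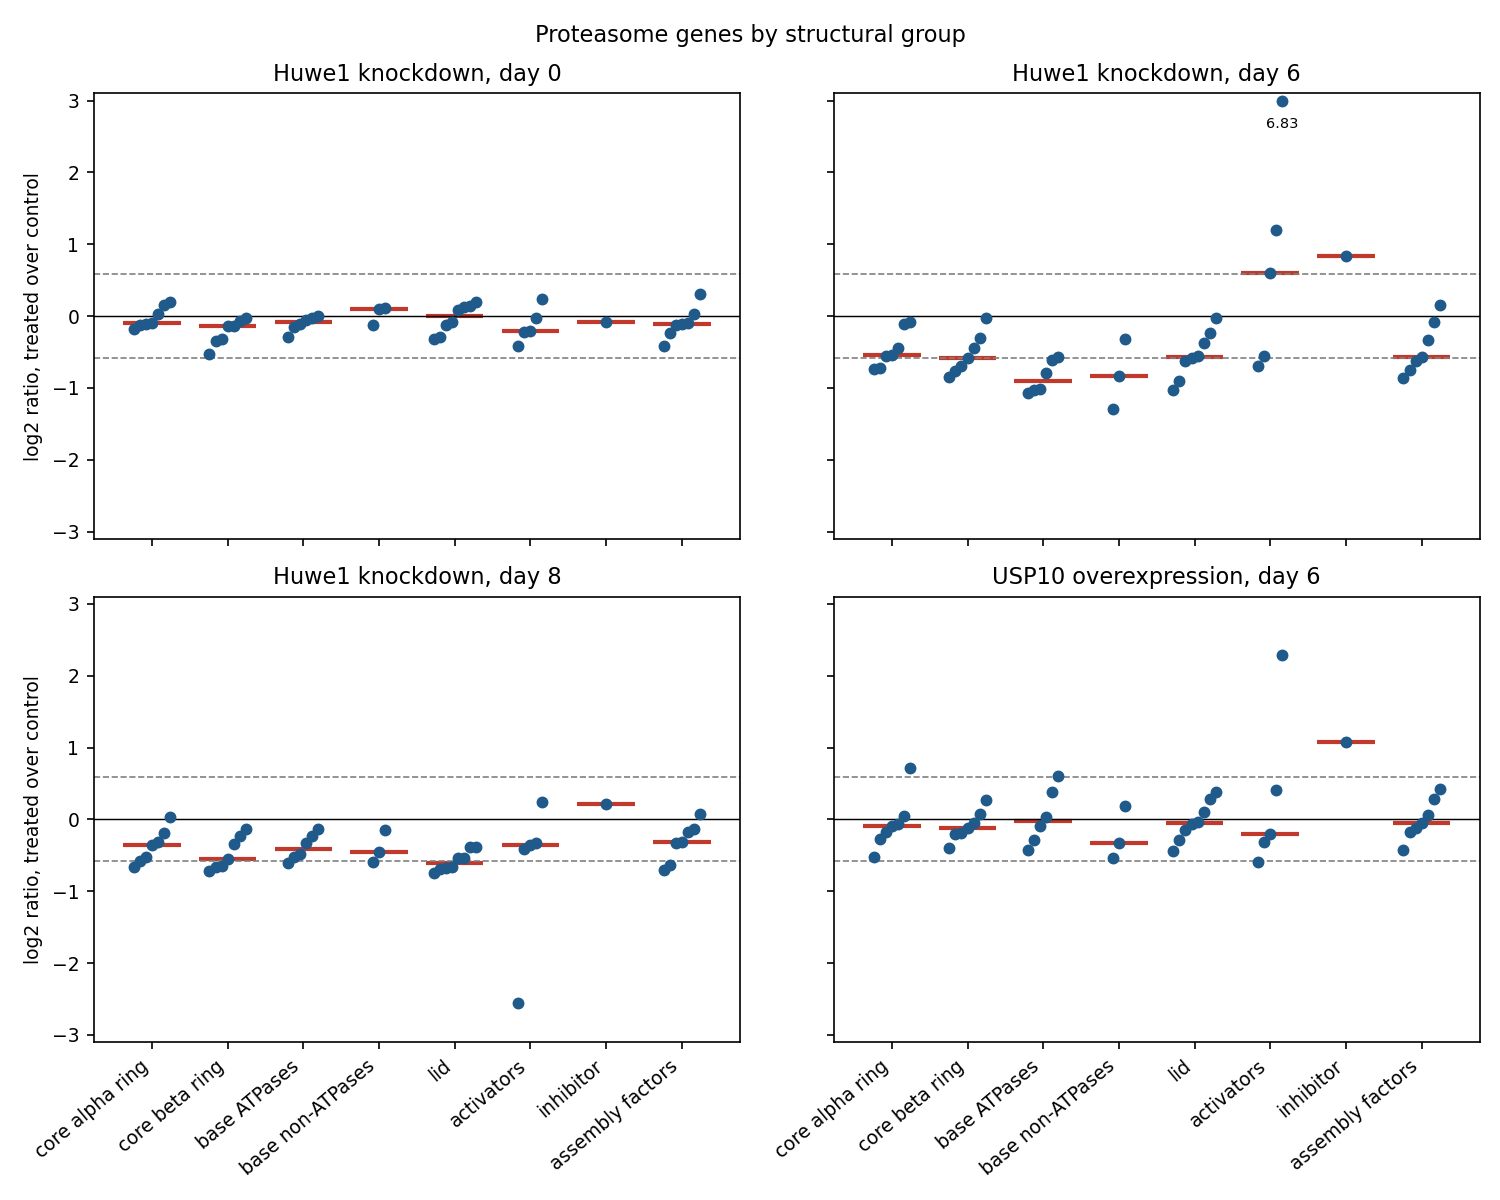
log2 ratio of treated to control FPKM (y axis) for 44 proteasome genes in 8 structural groups (x axis), 1 panel per comparison. Each point is 1 gene, red bars are group medians, dashed lines the 1.5-fold limits, and the Psme2b point at day 6 is drawn at 3 with its value of 6.83 beside it. At day 6 of knockdown all core, base and lid points lie below 0 and Psme1, Psme2 and Psmf1 above it.

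Genes of the interferon response and of muscle moved in the same columns. In the day 6 knockdown all 7 measurable genes of a list of 8 interferon-inducible genes were at least 2-fold higher, where 17.6% of all genes were. Of these, Psmb8, Tap1 and Isg15 reached 1 FPKM only in the knockdown column, so their direction was set by that filter. B2m, the light chain of class I antigen-presenting molecules, had 136 and 1242 FPKM. The immunoproteasome subunits Psmb10 and Psmb8 had 1.20 and 2.58 FPKM and 0.0597 and 1.13 FPKM. In the second day 6 control B2m had 402 FPKM and Psmb10 1.97 FPKM, both above the first control, and Psmb8 had 0 FPKM. The size of these rises thus depended on the control column too. Differentiated muscle markers summed to 10761 FPKM in the control at day 6 and to 1614 FPKM after knockdown, and all 5 were above 0 in both. The part of either in the proteasome values was not tested, and fewer myotubes or less RNA of a gene per myotube cannot be told apart in bulk RNA.

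The second day 6 control gives the only measure of how far apart 2 control columns of 1 stage lay, again across tables normalized separately. In it 28 of the 31 26S subunits were lower than in the first, with a median log2 ratio of -0.37. Of the 45 members 9 were at least 1.5-fold lower, where 19.7% of all genes were, and 3 were higher, where 19.0% were. Psmb5 had 91.8 FPKM in the first and 47.9 FPKM in the second control (-0.94), Psmd2 269 and 156 FPKM (-0.79) and Psmc3 378 and 226 FPKM (-0.74). These are distances of the same order as the day 6 knockdown ratios.

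Set against the second control, the knockdown column was much closer to it. The median log2 ratio of the 26S subunits was then -0.23 in place of -0.59, 24 of 31 remained below control, and 2 passed 1.5-fold, namely Psmc4 (-0.65) and Psmd14 (-0.63). Over all members 4 were at least 1.5-fold lower, where 18.3% of all genes were, and 3 were higher, where 23.0% were. Besides Psmc4 and Psmd14 the lower members were Psmg4 (-1.74), the only one past 2-fold, and Psme3 (-0.61). The base stayed furthest below, at -0.38, and the beta ring median turned to 0.06, with Psmb5 at 0.09. Above the second control Psme1 (0.70), Psmf1 (0.67) and the uncertain Psme2b (0.94) were again past 1.5-fold, and Psme2 was at 0.52. Muscle markers summed to 4898 FPKM in the second control, between the first control and the knockdown. The size of the day 6 fall in core, base and lid thus depended on the control column, and the direction of the beta ring did too.

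**Figure D3:**
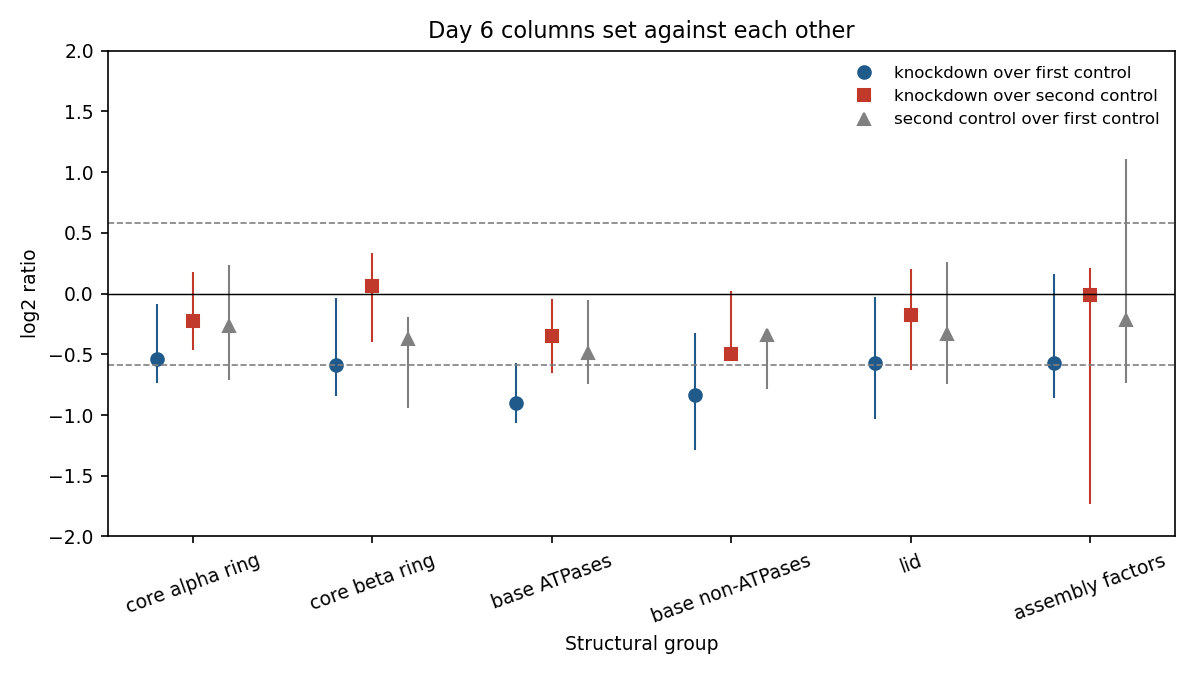
Median log2 ratio (symbols) and range from the lowest to the highest gene (lines) in 6 structural groups (x axis) for the day 6 knockdown over the first control, the knockdown over the second control, and the second over the first control; dashed lines mark 1.5-fold. Base ATPases have medians of -0.90, -0.35 and -0.49 in that order, and the beta ring -0.59, 0.06 and -0.37.

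In myotubes infected after differentiation had begun, most 26S subunits were again lower under Huwe1 knockdown. At day 8, 30 of 31 were below control, with a median log2 ratio of -0.52, and 10 passed 1.5-fold. Among all 45 members 14 were at least 1.5-fold lower, where 18.2% of all 11755 genes were, and none was higher, where 17.4% were. The 14 include Psmc3ip (-0.78), which is no proteasome subunit, and the uncertain Psme2b. At 2-fold 1 was lower, Psme2b, against 10.0% of all genes, and none higher, against 7.89%. The median over all genes was 0.00. The day 8 comparison has its own control and shares no column with the one at day 6.

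The order of the groups was not that of day 6. The lid was lowest with a median log2 ratio of -0.60, and its 8 genes ran from Psmd6, which fell from 167 to 99.2 FPKM (-0.75), to Psmd3, with 146 and 112 FPKM (-0.38). The deubiquitinase Psmd14 fell from 98.3 to 60.9 FPKM (-0.69), and Psmd8, level at day 6, fell from 96.6 to 60.4 FPKM (-0.68). The beta ring followed at -0.54. Psmb3, a structural subunit, was lowest, from 105 to 63.9 FPKM (-0.72), Psmb5 fell from 65.8 to 42.0 FPKM (-0.65) and Psmb7 from 302 to 191 FPKM (-0.66), whereas Psmb6 (178 and 152 FPKM, -0.23) and Psmb4 (117 and 107 FPKM, -0.13) were within the limit. The alpha ring, at a median of -0.35, held both Psma3, which fell from 182 to 115 FPKM (-0.67), and Psma1, with 159 and 163 FPKM (0.04), the only 26S subunit above control.

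The base, lowest at day 6, had a median of -0.45 at day 8. Psmc5 fell from 153 to 100 FPKM (-0.61) and Psmd1 from 170 to 112 FPKM (-0.60). Psmd2 had 251 and 184 FPKM (-0.45), Psmd4 359 and 325 FPKM (-0.15) and Psmc6 269 and 244 FPKM (-0.14). The ATPases Psmc3 (-0.53) and Psmc4 (-0.23) were, like Psmd2, inside the 1.5-fold limit at day 8. Whether these ratios differ from those at day 6 was not tested.

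Activators and chaperones at day 8 lay between the limits with few exceptions. Psme1 had 36.0 and 42.7 FPKM (0.25) and Psmf1 5.30 and 6.14 FPKM (0.21), both above control, while Psme2 had 27.5 and 20.6 FPKM (-0.41), Psme3 34.8 and 27.8 FPKM (-0.32) and Psme4 76.7 and 59.8 FPKM (-0.36). Psme2b was listed at 1.37 and 0.224 FPKM (-2.56), with about 20.6 fragments in the control. Among assembly factors Psmd10, the base chaperone gankyrin, fell from 31.5 to 19.3 FPKM (-0.70), and Psmg2 had 24.9 and 26.1 FPKM (0.07). The median log2 ratio of the 6 measurable interferon-inducible genes was 0.80, and muscle markers summed to 9037 FPKM without and 1895 FPKM with knockdown. Their part in these values was not tested.

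USP10 overexpression, in which muscle markers also summed to less than in its control (2210 against 4898 FPKM), left most proteasome genes within the limit. Acta1, the largest term of both sums, was 1.35-fold lower (2164 FPKM in the control and 1599 in the USP10 line). Myog was 10.6-fold, Myh3 9.27-fold, Ckm 4.83-fold and Tnnt3 3.40-fold lower. The 26S median log2 ratio was -0.09 and that of all genes 0.05. Only 1 of the 45 members was at least 1.5-fold lower, where 16.8% of all 11482 genes were, and 4 were higher, where 18.8% were. At 2-fold none was lower, against 10.0% of all genes, and 2 were higher, Psmf1 and Psme2b, against 9.70%. The header names 1 read file for the second day 6 control, but its library could not be mapped. On the assumption that both columns are single libraries, counting intervals are given here. They are 95% normal intervals on the log2 scale that cover counting error only, from fragments estimated with the longest coding transcript.

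Psmf1 had 5.29 FPKM in the second day 6 control and 11.1 FPKM in the USP10 line (1.07, interval 0.83 to 1.31), the largest rise of a member there apart from Psme2b. Psma1 went from 41.9 to 69.1 FPKM (0.72, interval 0.57 to 0.88) and Psmc6 from 208 to 315 FPKM (0.60, interval 0.55 to 0.65). The PA28 partners moved apart, with Psme1 at 32.8 and 43.6 FPKM (0.41, interval 0.23 to 0.60) and Psme2 falling from 23.8 to 15.8 FPKM (-0.59, interval -0.85 to -0.34). Psme2b, the near copy of Psme2, went from 13.6 to 66.8 FPKM (2.29) in the same columns, so how fragments were divided between them could bear on both values and was not tested. The lowest 26S subunits were Psmd2, with 156 and 108 FPKM (-0.53), and Psma5, with 81.6 and 56.5 FPKM (-0.53).

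The median of 6 measurable interferon-inducible genes was 0.99 in the same comparison, and its part was not tested. Among them Tap1 (0.747 and 1.27 FPKM) reached 1 FPKM only in the USP10 column. Other members in the USP10 line were close to control. Psmb5 (-0.12), Psmb6 (-0.19) and Psmb7 (-0.20) lay between the extremes of the beta ring, Psmb3 (-0.40) and Psmb1 (0.27). Psmd12 (-0.44) and Psmd13 (0.38) bounded the lid, with Psmd14 at -0.14. Psmc3 (-0.43) was the lowest ATPase, and Psmd4 (0.18) was the highest of the base genes that are not ATPases. Psme3 stood at -0.21, Psme4 at -0.31, Psmg1 at -0.42 and Psmd9 at 0.43. Set instead against the first day 6 control, across tables, the USP10 column had a 26S median log2 ratio of -0.47, with Psmd2 at -1.32 and Psmc3 at -1.17. The choice of control column thus moved this comparison as well.

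Across the 8 columns some members kept their rank and others did not. Psmb7 was the most abundant beta subunit in every column, from 191 to 327 FPKM, and Psmc4 the least abundant ATPase in all but the day 8 knockdown, where Psmc5 was. Psmf1 was lowest in the first day 6 control (4.69 FPKM) and highest in the USP10 line (11.1 FPKM). Psmg4, a core chaperone picked after its values were seen, had 174 and 154 FPKM in the 2 columns of the USP10 table. In the other 6 it had 52.2 to 121 FPKM, and the share of all genes that differ in this way was not computed. Under Huwe1 knockdown Psmg4 fell from 80.5 to 52.2 FPKM at day 6 (-0.62) and from 81.5 to 52.5 FPKM at day 8 (-0.64).

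**Figure D4:**
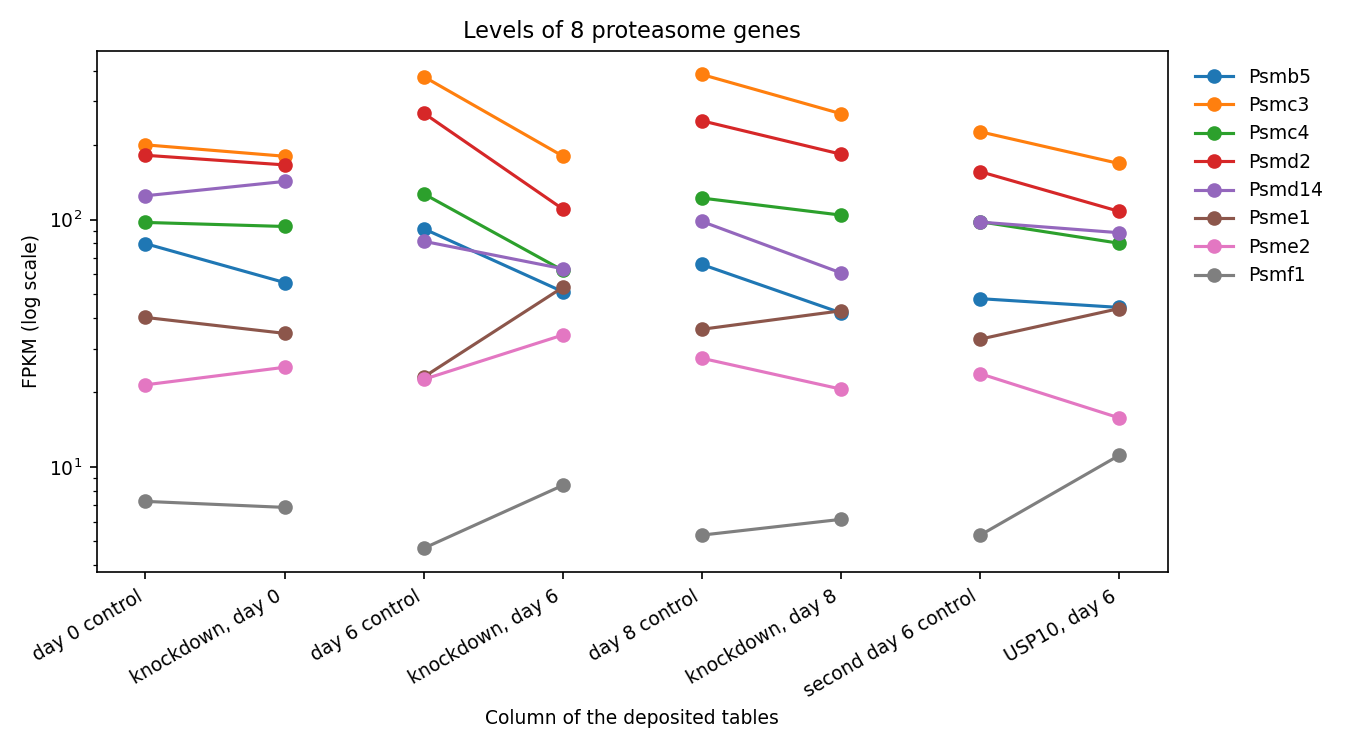
FPKM on a log scale (y axis) of 8 proteasome genes in the 8 columns (x axis), with a line joining the control and treated column of each table; each point is 1 column without replicate error. Psmc3 and Psmd2 go down in the day 6 knockdown from 378 and 269 FPKM while Psme1 and Psmf1 go up.

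The wider pathway was described with 25 genes for proteasome-bound proteins, ubiquitin shuttles, ubiquitin itself and the regulators of subunit genes. At day 6 of knockdown 10 of the 25 were at least 1.5-fold lower, where 23.5% of all genes were, and 4 higher, where 26.6% were, with a median log2 ratio of -0.55. The core maturation factor Pomp had 186 and 125 FPKM (-0.57), the ubiquitin receptor Adrm1 112 and 64.4 FPKM (-0.79) and the deubiquitinase Uchl5 30.5 and 16.8 FPKM (-0.86). The unfoldase Vcp fell from 468 to 270 FPKM (-0.79). Against these, the lid-associated Shfm1 went from 261 to 626 FPKM (1.26) and the shuttle Ubqln2 from 7.79 to 20.4 FPKM (1.39). In the second day 6 control Pomp had 108 FPKM, below the knockdown column. Adrm1 had 86.9, Uchl5 30.6 and Vcp 295 FPKM there, above the knockdown column, and Shfm1 had 270 and Ubqln2 17.3 FPKM, below it. The size of these differences thus depended on the control column, and the direction for Pomp did too. The 25 genes were not counted against that control.

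The regulators of subunit genes differed from each other. Control levels of Nfe2l1 were 95.9 FPKM at day 0 and 495 FPKM at day 6. It fell to 323 FPKM in the day 6 knockdown (-0.62), while Nfe2l2 had 61.6 and 103 FPKM at day 6 (0.74). The second day 6 control had 400 FPKM of Nfe2l1 and 91.6 FPKM of Nfe2l2, both closer to the knockdown column than the first control was. At day 8 Nfe2l1 had 239 and 244 FPKM (0.03). The part of either regulator in the subunit values was not tested. In the day 8 comparison 1 of the 25 pathway genes was at least 1.5-fold lower, Uchl5 (26.6 and 15.5 FPKM, -0.78), and 3 were higher. The shares of all genes were 18.2% lower and 17.4% higher, and the median log2 ratio of the pathway genes was -0.15. In the USP10 line 2 were lower and 3 higher, where 16.8% and 18.8% were. Shfm1 (270 and 711 FPKM, 1.40) was past 2-fold there too, but the USP10 line was compared with another day 6 control than the knockdown was. At day 0 none was lower and 2 were higher, where 5.52% and 4.72% were.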

How the data were processed

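RNA of C2C12 cells was sequenced in 10 libraries. Per the paper's methods, mRNA was purified on oligo(dT) beads, libraries were made with a ScriptSeq kit (directional per the labels), and Tophat and Cuffdiff were used by the authors for mapping and quantification. The labels name Bowtie2 and mm10. Tool versions and annotation are not given in the sources used here. The deposited unit is FPKM, which the authors normalized to transcript length and library size separately in each of the 4 tables and listed as 1 value per condition, pooling the 2 knockdown libraries. The deposited tables also hold the authors' log2 fold changes, test scores, p-values and q-values, which were not used. All 8 FPKM columns were used. How fragments shared by near-identical genes were divided is not stated, and 9 of the 45 members have a near copy among the transcripts of other genes (95% identity over 50% of the transcript or more, GENCODE transcripts), of which 1 pair, Psme2 and Psme2b, is protein-coding on both sides.

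Ratios were computed as log2 of (treated + 0.01)/(control + 0.01), a scale on which low values change less than their fold. A gene was kept in a table if either column reached 1 FPKM, and limits of 1.5-fold and 2-fold were applied. No p-value can be computed from single values. In each comparison the text names the lowest and highest member of each structural group, every member past 2-fold, and Psmb5, Psmb6, Psmb7, Psmd4, Psmd14, Psme1 to Psme4 and Psmf1, with some further members chosen after their values were seen. The members, lists and tests were chosen with earlier results of these data known. The values of some list genes are not reported here. Ratios across tables are descriptions. Depth was estimated from the lowest FPKM values of genes with 1 annotated transcript, and the computations were tested on simulated data. Alternatives were pseudocounts of 0.1 and 1, no filter, a minimum of 5 FPKM, 1 FPKM in both columns, centring on the median gene, and leaving out Psme2b and Psmc3ip. Computations ran in Python 3.11.15 with pandas 2.3.3 and numpy 2.4.6.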

Additional observations from a re-analysis of the deposited data

Results flagged for a closer look

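Psme2b was past 1.5-fold in opposite directions under Huwe1 knockdown at 2 stages, higher at day 6 (0.220 and 26.1 FPKM) and lower at day 8 (1.37 and 0.224 FPKM). The day 8 log2 ratio minus the day 6 log2 ratio was -9.39. The difference was not tested, since each column holds 1 value. Its 3 values below 2 FPKM, its near copy Psme2 and the other gene within its listed interval leave its own level uncertain. Among the 3 Huwe1 comparisons no other member was past 1.5-fold in both directions.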

How the results depend on the processing

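No paired analysis was possible because the knockdown libraries were pooled into 1 column per table, and for the same reason no library could be left out. The median log2 ratio of the members kept its size in all 4 comparisons under all 7 alternatives, and no gene past 1.5-fold changed direction. Of 140 recomputed medians and counts of members, 126 stayed within the limits set (0.1 log2 units for a median, 1.5 times for a count) and 14 did not. Without a filter on low values, where Psma8 and Psmb11 enter, 1 member was at least 1.5-fold higher and 1 at least 2-fold higher at day 0 (0 and 0 before), 1 was at least 1.5-fold higher at day 8 (0 before), and with USP10 2 were at least 1.5-fold lower (1 before) and 1 at least 2-fold lower (0 before). With a pseudocount of 1, 0 members were at least 2-fold lower at day 8, 0 were at least 1.5-fold lower with USP10 and 1 was at least 2-fold higher. With 5 FPKM, or with 1 FPKM in both columns, 0 were at least 2-fold lower at day 8, and with 1 FPKM in both columns 1 was at least 2-fold higher at day 6. Leaving out Psme2b and Psmc3ip, chosen after seeing the data, gave 1 at least 2-fold higher at day 6, 0 at least 2-fold lower at day 8 and 1 at least 2-fold higher with USP10, since Psme2b alone made up the difference. At day 6 the choice of control column moved the 26S median from -0.59 to -0.23. Depth limits the low members: Psmf1 rests on about 156 fragments and Psmg1 on 76.5 in the second day 6 control.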
